A study of Mus musculus with 4 samples.

Results

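The genes described here are 7 regulators of the proximal tubule, the first segment of the renal tubule: the nuclear receptors Hnf4a, Hnf4g, Ppara, Esrra and Nr1h4, the coactivator Ppargc1a and the bZIP factor Maf. They were chosen by symbol, through the Ensembl identifiers of the deposited table, and all 7 were found among its 22809 genes. The table holds poly(A) RNA sequencing of freshly isolated mouse glomeruli, the filtering units of the kidney, at 3 weeks of age. The 2 KO-labelled libraries (HDAC KO) came from mice with a podocyte-specific deletion of Hdac1 and Hdac2, which encode histone deacetylases, and the 2 control libraries from wild-type controls given no treatment. Each library pooled 2 mice, and per the series' design text 2 independent experiments were run. The sources used here do not give the Cre driver, the strain or the sex of the mice. Glomeruli do not contain proximal tubule cells, so these genes were read in material that the markers below show to hold tubular RNA as well.

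Proximal tubule cells reabsorb most of the filtrate and live on fatty acid oxidation. HNF4A and its paralog HNF4G bind DNA as homodimers and switch on transporter and brush border genes. PPARA, as a dimer with a retinoid X receptor, activates fatty acid oxidation when bound by fatty acids. PPARGC1A (PGC-1alpha) binds ESRRA (ERRalpha) and PPARA and raises the expression of mitochondrial genes. NR1H4 (FXR) is the bile acid receptor, and MAF (c-Maf) is a transcription factor of the large Maf family that is made by tubular cells and also by macrophages.

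For Hnf4a, Nr1h4, Ppargc1a and Esrra the windows around the annotated start sites are shown, because in these 4 genes both KO-labelled libraries lay below both controls. The windows run from 250 bases before to 50 bases after a start, come from RefSeq for GRCm38.p6, and are printed 5′ to 3′ in the direction of the gene, with matched motif letters in capitals. Hnf4a has an upstream promoter and a downstream one, and the downstream promoter is the one known from liver and kidney. The only Nr1h4 window matched lies at an internal start, 26.9 kb inside the annotated gene from its 5′ end, and the outermost start is not shown.
Hnf4a downstream promoter, chr2:163546905-163547204, plus strand: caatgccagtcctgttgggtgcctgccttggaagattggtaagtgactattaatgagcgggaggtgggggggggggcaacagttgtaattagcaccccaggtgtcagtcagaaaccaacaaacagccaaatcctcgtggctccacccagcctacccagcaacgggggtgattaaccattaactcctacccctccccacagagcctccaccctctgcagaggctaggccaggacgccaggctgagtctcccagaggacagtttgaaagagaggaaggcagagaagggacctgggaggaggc
Hnf4a upstream promoter, chr2:163506607-163506906, plus strand: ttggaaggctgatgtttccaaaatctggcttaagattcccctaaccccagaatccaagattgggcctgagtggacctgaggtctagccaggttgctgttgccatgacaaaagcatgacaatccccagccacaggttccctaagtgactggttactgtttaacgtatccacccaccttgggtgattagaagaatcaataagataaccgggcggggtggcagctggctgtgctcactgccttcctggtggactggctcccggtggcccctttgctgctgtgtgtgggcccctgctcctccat
Nr1h4 window at an internal start, chr10:89506609-89506908, minus strand: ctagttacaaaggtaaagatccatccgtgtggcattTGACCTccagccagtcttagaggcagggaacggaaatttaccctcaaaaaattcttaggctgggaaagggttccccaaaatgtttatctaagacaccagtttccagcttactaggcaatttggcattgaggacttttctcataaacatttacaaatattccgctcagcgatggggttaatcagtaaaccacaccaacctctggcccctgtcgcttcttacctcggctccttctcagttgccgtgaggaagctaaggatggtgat
Ppargc1a promoter, chr5:51567676-51567975, minus strand: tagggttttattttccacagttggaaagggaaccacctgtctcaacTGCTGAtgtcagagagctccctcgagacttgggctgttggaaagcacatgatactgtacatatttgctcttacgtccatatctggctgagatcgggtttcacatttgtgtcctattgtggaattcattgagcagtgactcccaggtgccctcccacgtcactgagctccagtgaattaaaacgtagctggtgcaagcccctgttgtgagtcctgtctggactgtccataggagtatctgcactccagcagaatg
Esrra promoter, chr19:6921759-6922058, minus strand: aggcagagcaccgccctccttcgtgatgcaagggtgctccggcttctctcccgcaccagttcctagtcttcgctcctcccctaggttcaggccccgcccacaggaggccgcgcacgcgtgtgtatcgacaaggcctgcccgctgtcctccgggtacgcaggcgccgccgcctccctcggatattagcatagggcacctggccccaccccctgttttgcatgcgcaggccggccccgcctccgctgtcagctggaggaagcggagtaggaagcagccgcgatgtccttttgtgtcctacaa
The motifs were searched on both strands. The Nr1h4 window held 1 nuclear receptor core, AGGTCA on the opposite strand (capital TGACCT), beginning 214 bases before that internal start, a motif found in 16.3% of all 32851 windows of the table. The Ppargc1a window held 1 core of Maf factor sites, TGCTGA, beginning 204 bases before the start, which 19.5% of all windows hold. No motif searched was in the letters of the Hnf4a and Esrra windows.
Windows were matched for 5 of the 7 genes, 6 windows in all, and not for Hnf4g and Maf. No member window held the direct repeat DR1 of the nuclear receptor core (0.0396% of all windows), the ERR element TCAAGGTCA (0.423%), the inverted repeat IR1 (0.00913%) or the cAMP response element TGACGTCA (1.79%). AGGTCA lies within both repeats and the ERR element. GC content was 57.3% and 54.0% in the downstream and upstream Hnf4a windows, 45.7% in that of Nr1h4, 48.7% in that of Ppargc1a and 66.0% in that of Esrra, against a median of 52.7% over all windows. The expression values are per gene and do not tell the 2 Hnf4a starts apart.

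None of the 7 transcripts passed the test between the groups, and all of them were well expressed apart from Hnf4g. Levels are in TPM, which divides the reads of a gene by its length and gives each library a total of 1000000, so they can be compared between genes. Of 18612 genes tested with limma, 1 passed at an adjusted p below 0.05 (0.00537% of the tested genes), the snRNA gene Gm22513, which is not among the 7. At an unadjusted p below 0.05, limma took 0 of the 7, against 17.9% of all tested genes (13.4% higher and 4.46% lower), and its smallest adjusted p among them was 0.329. Voom on the recovered reads has a value for 6 of the 7, without Esrra, and took 0 of the 6 at an unadjusted p below 0.05, against 19.4% of all genes it tested. At an adjusted p below 0.05 voom called 0 of all genes. In 5 of the 7 the groups did not overlap (50.9% of all tested genes): both KO-labelled libraries lay below both controls for Hnf4a, Ppargc1a, Esrra and Nr1h4 (14.3% of all tested genes) and above both for Hnf4g (36.7%). The median log2 fold change of the 7 was -0.31, against 0.17 over all tested genes.

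The libraries themselves differed in their content. The reads recovered from the TPM values numbered 17476365 and 20943138 in the KO-labelled libraries and 15808117 and 12876939 in the controls. A list of 28 proximal tubule markers summed to 7981 and 9048 TPM in the KO-labelled libraries, against 51700 and 12869 TPM in control replicates 1 and 2, and no marker was at 0 in any library. In control replicate 1, 31062 TPM of that sum were from Kap, the androgen-regulated kidney protein, which was at 987 TPM in control replicate 2. The 15 podocyte markers summed to 176 and 437 TPM in the KO-labelled libraries, against 412 and 923 TPM in the controls. The groups overlapped in these sums, and replicate 1 was the lower library of each group. Of the 15, 3 were lower and 0 higher in both KO-labelled libraries, against 14.3% and 36.7% of all tested genes. The 14 macrophage markers summed to 708 and 811 TPM in the KO-labelled libraries, against 68.1 and 165 TPM in the controls. No podocyte or macrophage marker was at 0 in any library. All 8 genes listed for the parietal epithelium, which lines Bowman's capsule, were higher in both KO-labelled libraries (36.7% of all tested genes). Their log2 fold changes had a median of 1.73. These 8 genes summed to 761 and 588 TPM in the KO-labelled libraries, against 181 and 229 TPM in the controls. Whether they are specific to parietal cells was not tested, nor was the part of the tubular RNA in their values. The 10 glomerular endothelial markers summed to 298 and 611 TPM in the KO-labelled libraries, against 354 and 837 TPM in the controls, and so were low in replicate 1 of both groups. The sums of the mesangial list and of the list for the later tubule segments overlapped between the groups. Of the 14 later-segment markers, 7 were lower and 2 higher in both KO-labelled libraries, against 14.3% and 36.7% of all tested genes. Their median log2 fold change was -0.40. The targeted transcripts do not check the labels: Hdac1 was at 22.9 and 22.5 TPM in the KO-labelled libraries and 19.3 and 18.6 TPM in the controls, Hdac2 at 23.5 and 20.9 TPM in the KO-labelled libraries against 20.2 and 24.1 TPM in the controls, and the other glomerular cells keep both genes. Every direction given here therefore rests on the labels. In such pooled tissue, fewer cells of a type and less RNA per cell cannot be told apart.

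**Figure D1:**
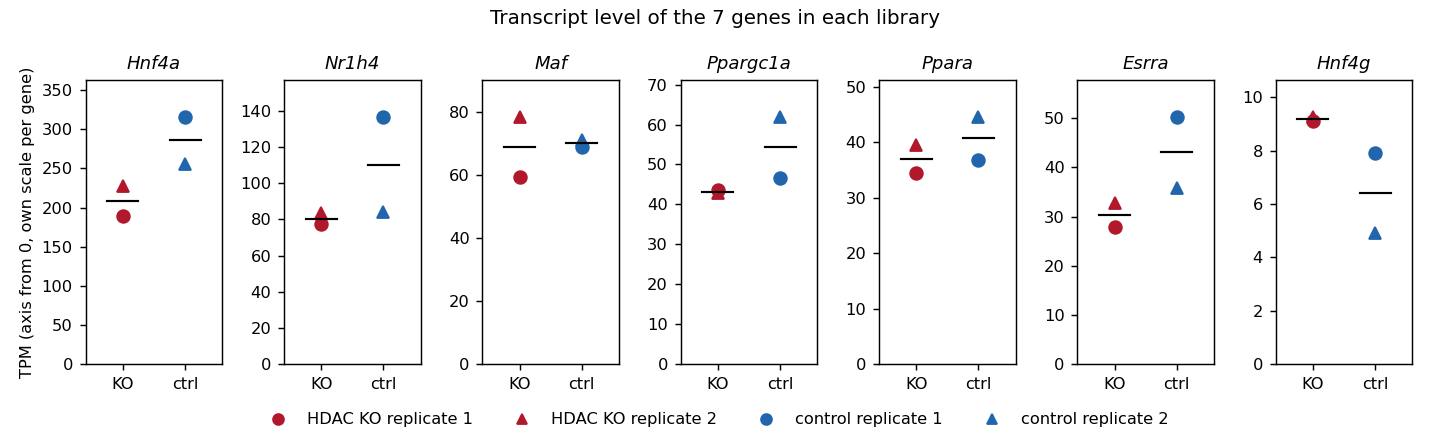
TPM of each gene (vertical axes, each from 0 with its own scale) in the 2 HDAC KO libraries (red, left) and the 2 control libraries (blue, right), with the group mean as a line. Hnf4a is the highest of the 7 in every library and Hnf4g the lowest, and for 6 of the 7 the group means differ by less than the 2 control libraries do.

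The order of levels was the same at both ends in every library. Hnf4a averaged 247 TPM over the 4 libraries, above 99.1% of the listed genes, and its lowest library lay above the highest library of Nr1h4, which averaged 95.4 TPM. Nr1h4, Maf (69.4 TPM), Ppargc1a (48.7 TPM), Ppara (38.9 TPM) and Esrra (36.7 TPM) followed in that order. Their ranges over the libraries overlapped from one neighbour to the next. Each pair of neighbours from Nr1h4 to Ppara kept its order in all 4 libraries, but Ppara exceeded Esrra in 3 of 4 only. Hnf4g averaged 7.80 TPM, and its highest library was below the lowest of Esrra.

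Hnf4a (ENSMUSG00000017950.16, chromosome 2, 163506808 to 163572910 in GRCm38, plus strand) was at 189 and 228 TPM in the KO-labelled libraries, against 316 and 256 TPM in control replicates 1 and 2. Both KO-labelled libraries were below both controls, and the nearest libraries of the groups were at 228 and 256 TPM. These values rest on 6529 and 9191 reads in the KO-labelled libraries and 10206 and 6602 reads in the controls. The means were 208 ± 27.4 TPM in the KO-labelled libraries and 286 ± 42.6 TPM in the controls (SD, n = 2 each), and the log2 fold change came to -0.45 (SE 0.20, 95% interval -0.96 to 0.05, adjusted p = 0.329 by limma). Its paralog Hnf4g (ENSMUSG00000017688.14, chromosome 3, 3508030 to 3658052, plus strand) went the other way in sign. It was at 9.13 and 9.27 TPM in the KO-labelled libraries, against 7.90 and 4.91 TPM in the controls. The KO-labelled libraries nearly coincided while the controls differed 1.61-fold, on 172 and 204 reads in the KO-labelled libraries against 139 and 69 reads in the controls. The log2 fold change was 0.49 (SE 0.28, 95% interval -0.22 to 1.21, adjusted p = 0.441 by limma).

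Among the regulators of fatty acid and mitochondrial metabolism, Ppara (ENSMUSG00000022383.13, chromosome 15, 85734983 to 85802819, plus strand) was at 34.5 and 39.5 TPM in the KO-labelled libraries, against 36.9 and 44.6 TPM in the controls. The groups overlapped, and the log2 fold change was -0.13 (SE 0.18, 95% interval -0.59 to 0.32, adjusted p = 0.761 by limma) and 0.00094 without control replicate 2. Ppargc1a (ENSMUSG00000029167.13, chromosome 5, 51454250 to 51567726, minus strand) was at 43.5 and 42.9 TPM in the KO-labelled libraries against 46.6 and 61.9 TPM in the controls. Control replicate 2 stood above the other 3 libraries, which lay close together. The log2 fold change of Ppargc1a was -0.31 (SE 0.19, 95% interval -0.79 to 0.18, adjusted p = 0.476 by limma), and it was -0.11 without control replicate 2 and -0.51 without control replicate 1. Esrra (ENSMUSG00000024955.15, chromosome 19, 6910977 to 6921813, minus strand) was at 27.9 and 32.7 TPM in the KO-labelled libraries against 50.3 and 35.8 TPM in the controls. Here control replicate 1 was the high library. The log2 fold change of Esrra was -0.48 (SE 0.22, 95% interval -1.03 to 0.08, adjusted p = 0.343 by limma), the most negative of the 7. The position and exons are those of the GENCODE M21 annotation, which holds another version of Esrra. Its exons there share 3.74% of their bases with Trmt112, on the opposite strand, and Mir6990. The strand setting of the counting is not given, so a part of the Esrra reads is uncertain.

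Nr1h4 (ENSMUSG00000047638.15, chromosome 10, 89454234 to 89533585, minus strand) was at 77.4 and 83.6 TPM in the KO-labelled libraries, against 137 and 84.0 TPM in the controls. Control replicate 1 stood apart, and the other 3 libraries differed by little. The log2 fold change was -0.41 (SE 0.26, 95% interval -1.06 to 0.24, adjusted p = 0.481 by limma). It was -0.06 without control replicate 1 and -0.76 without control replicate 2, and each of these fits holds only 1 control library. Maf (ENSMUSG00000055435.6, chromosome 8, 115682942 to 115707794, minus strand) was at 59.2 and 78.3 TPM in the KO-labelled libraries, around the controls at 68.9 and 71.1 TPM. Its log2 fold change was -0.04 (SE 0.19, 95% interval -0.52 to 0.44, adjusted p = 0.944 by limma), and 0.16 without KO-labelled replicate 1. Of the Maf exon bases, 5.34% lie opposite Gm15655. For all 13 tested macrophage markers both KO-labelled libraries lay above both controls (36.7% of all tested genes), with a median log2 fold change of 2.24, and their part in the Maf values was not tested. The values of Ppara, Ppargc1a, Nr1h4 and Maf rest on 915 to 5400 reads per library.

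**Figure D2:**
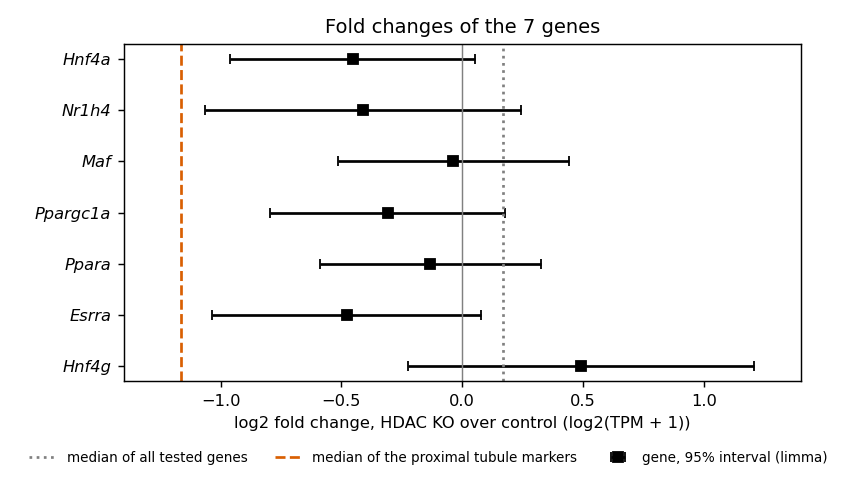
Log2 fold change of each gene (squares, HDAC KO over control on the log2(TPM + 1) scale) with its 95% interval from limma, beside the median of all tested genes (dotted, 0.17) and of the 28 proximal tubule markers (dashed, -1.16). Every interval spans 0, and each ends above the dashed line.

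The log2 fold changes of the 7 were smaller in size than those of most markers of the proximal tubule, a difference that was not tested. The 28 proximal tubule markers had a median log2 fold change of -1.16, and in 25 of them both KO-labelled libraries lay below both controls (14.3% of all tested genes). By limma 0 passed the adjusted threshold, with 18 lower (4.46% of all tested genes) and 1 higher (13.4%) at an unadjusted p below 0.05. Of the markers, 24 had a more negative log2 fold change than Esrra, the lowest of the 7, as did 9.21% of all tested genes. Lrp2, the endocytic receptor megalin, had a log2 fold change of -1.63 (SE 0.27), Slc5a2, the glucose transporter SGLT2, of -1.50 (SE 0.25), and Slc22a8, an organic anion transporter, of -1.34 (SE 0.21). Slc6a19, a neutral amino acid transporter, had -0.97 (SE 0.16), with an adjusted p between 0.104 and 0.106 for these 4 by limma. The median of the markers was -0.64 without control replicate 1. The part of the tubular RNA content in the values of the 7, and in those of the target lists below, was not tested.

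Set against the mean log2(TPM + 1) of the 28 markers in the same library, Hnf4a stood at 0.42 and 0.49 in the KO-labelled libraries and at -0.69 and 0.21 in control replicates 1 and 2. On that scale Nr1h4 stood at -0.85 and -0.95 in the KO-labelled libraries against -1.89 and -1.39 in the controls, and Hnf4g at -3.80 and -3.99 in the KO-labelled libraries against -5.85 and -5.23 in the controls. Relative to the markers, 6 of the 7 were higher in both KO-labelled libraries than in both controls, as were 81.9% of all tested genes. The exception was Ppargc1a, at -1.67 and -1.89 in the KO-labelled libraries against -3.43 and -1.82 in the controls. The difference of group means ranged from 0.67 for Esrra to 1.64 for Hnf4g. Against control replicate 2 alone it ranged from 0.04 for Ppargc1a to 1.34 for Hnf4g. The markers did not move alike between the controls. In control replicates 1 and 2, Slc7a13 was at 512 and 6.81 TPM and Kap at 31062 and 987 TPM. Pck1, at 1072 and 1291 TPM, and Cubn, at 162 and 190 TPM, went the other way. These genes were chosen after their values were seen, and their part in the marker mean was not tested.

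**Figure D3:**
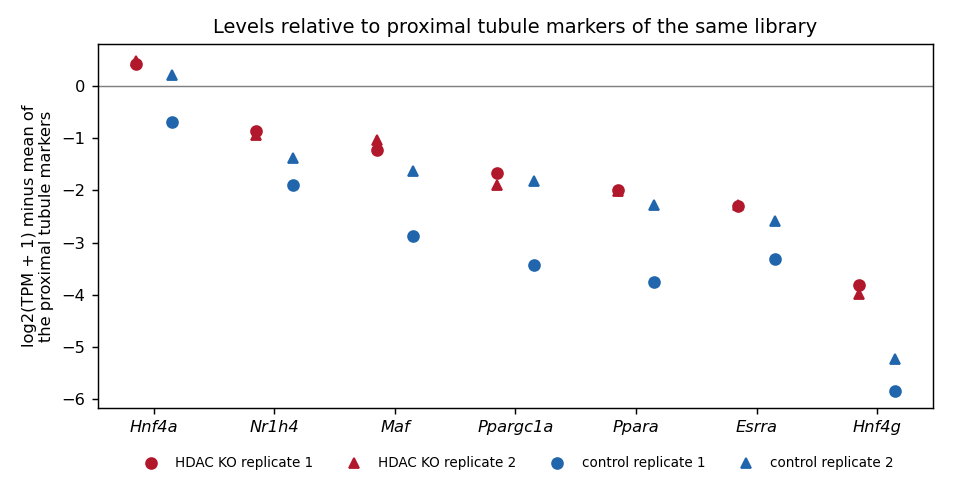
Log2(TPM + 1) of each gene minus the mean of the 28 proximal tubule markers in the same library (vertical axis), for the 2 HDAC KO libraries (red, left) and the 2 controls (blue, right). Control replicate 1, which holds the most marker RNA, is lowest for every gene, and control replicate 2 lies nearer to the HDAC KO libraries. For Hnf4a the values are 0.42 and 0.49 in HDAC KO, against 0.21 in control replicate 2.

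Genes that HNF4A is known to activate had a median log2 fold change of -0.63 over 27 tested, and 18 of them were lower in both KO-labelled libraries while Apoe, Apob and Slc5a1, named after their values were seen, were higher. Over all tested genes these shares were 14.3% lower and 36.7% higher. Macrophages also make Apoe, and their part in its values was not tested. By limma 0 passed the adjusted threshold, with 10 lower (4.46% of all tested genes) and 2 higher (13.4%) at an unadjusted p below 0.05. G6pc, which releases glucose in gluconeogenesis, was at 98.4 and 116 TPM in the KO-labelled libraries, against 397 and 493 TPM in the controls (log2 fold change by limma -2.04, SE 0.20, adjusted p = 0.0928). Slc6a20b, an amino acid transporter gene, had a log2 fold change of -1.54 (SE 0.20), and Pdzk1, a scaffold of brush border transporters, of -1.07 (SE 0.22). In these 3 genes the groups did not overlap. The list's median was -0.31 without control replicate 1, and the part of the tubular RNA content in the values of these targets was not tested.

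Of 27 PPARA target genes tested, 13 were lower and 7 higher in both KO-labelled libraries than in both controls, against 14.3% lower and 36.7% higher over all tested genes. The share of the list that was higher was thus below that of all genes. The median log2 fold change of the list was -0.17. By limma 0 passed the adjusted threshold, with 4 lower (4.46% of all tested genes) and 4 higher (13.4%) at an unadjusted p below 0.05. The 4 with the smallest p were all higher, Pdk4, Plin2 and Angptl4 among them. Pdk4, the kinase that shuts pyruvate dehydrogenase, was at 48.2 and 44.2 TPM in the KO-labelled libraries, against 10.05 and 14.5 TPM in the controls (log2 fold change by limma 1.85, SE 0.22, adjusted p = 0.0928). Plin2, which coats lipid droplets, was at 50.7 and 48.7 TPM in the KO-labelled libraries against 12.4 and 16.1 TPM in the controls. Angptl4, an inhibitor of lipoprotein lipase, was at 35.4 and 37.0 TPM in the KO-labelled libraries against 10.7 and 12.8 TPM in the controls. In these 3 the groups lay apart, while those of Ppara overlapped.
Enzymes of fatty acid oxidation are also in the list. Acadm, the medium-chain acyl-CoA dehydrogenase gene, was at 71.1 and 78.8 TPM in the KO-labelled libraries against 154 and 117 TPM in the controls. Ehhadh, of the peroxisome, was at 72.2 and 80.4 TPM in the KO-labelled libraries against 231 and 107 TPM in the controls, and Cpt1a, which admits fatty acids to mitochondria, at 128 and 121 TPM in the KO-labelled libraries against 151 and 102 TPM in the controls. These 3 were chosen after their values were seen.

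**Figure D4:**
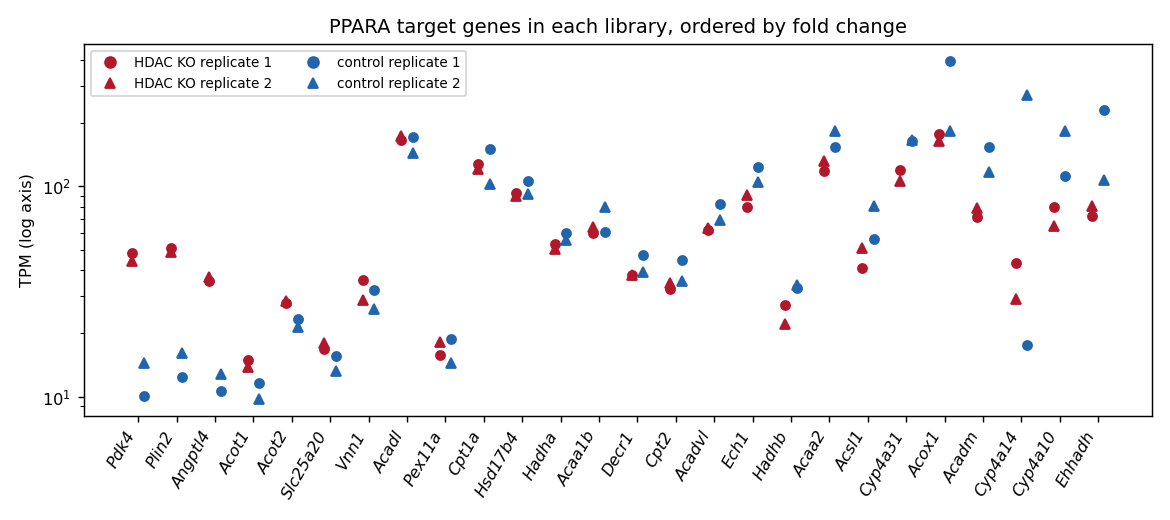
TPM (log axis) of 26 tested PPARA target genes in the 2 HDAC KO libraries (red, left of each pair) and the 2 controls (blue, right), ordered from the highest to the lowest log2 fold change. Pdk4, Plin2 and Angptl4 at the left are higher in both HDAC KO libraries, while Acadm and Ehhadh toward the right are lower in both.

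Of 37 targets of PPARGC1A and ESRRA tested, 35 had a negative log2 fold change (33.4% of all tested genes) and 32 were lower in both KO-labelled libraries than in both controls (14.3% of all tested genes). Their log2 fold changes had a median of -0.43, and the part of the tubular RNA content in them was not tested. By limma 0 passed the adjusted threshold, with 18 lower (4.46% of all tested genes) and 1 higher (13.4%) at an unadjusted p below 0.05. Ndufs1, a subunit of respiratory complex I, was at 31.0 and 34.1 TPM in the KO-labelled libraries, against 59.4 and 50.2 TPM in the controls (log2 fold change by limma -0.73, SE 0.17, adjusted p = 0.132). Sod2, the mitochondrial superoxide dismutase gene, had a log2 fold change of -0.76 (SE 0.16) and Uqcrfs1, of complex III, of -0.65 (SE 0.17). Ucp2, an inner membrane carrier gene and the 1 higher in both KO-labelled libraries, was at 74.1 and 78.5 TPM in the KO-labelled libraries against 27.7 and 34.1 TPM in the controls.

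NR1H4 targets were mixed, with a median of -0.15 over 9 tested. Sdc1, Kng1 and Fetub were higher in both KO-labelled libraries, and Slc10a2 and Abcc2 lower, shares near the 36.7% and 14.3% of all tested genes. By limma 0 passed the adjusted threshold, with 3 higher (13.4% of all tested genes) and 1 lower (4.46%) at an unadjusted p below 0.05. Slc10a2, the sodium-dependent bile acid transporter, was at 12.7 and 11.1 TPM in the KO-labelled libraries, against 27.8 and 16.4 TPM in the controls. Slc51a and Slc51b, the pair that exports bile acids, overlapped between the groups, Slc51a at 22.0 and 24.0 TPM in the KO-labelled libraries against 40.1 and 16.3 TPM in the controls. Sdc1, the syndecan-1 gene, was at 44.9 and 28.7 TPM in the KO-labelled libraries against 9.73 and 9.38 TPM in the controls (log2 fold change by limma 1.81, SE 0.26, adjusted p = 0.0988). Without control replicate 1 the median of the list was 0.41.

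**Figure D5:**
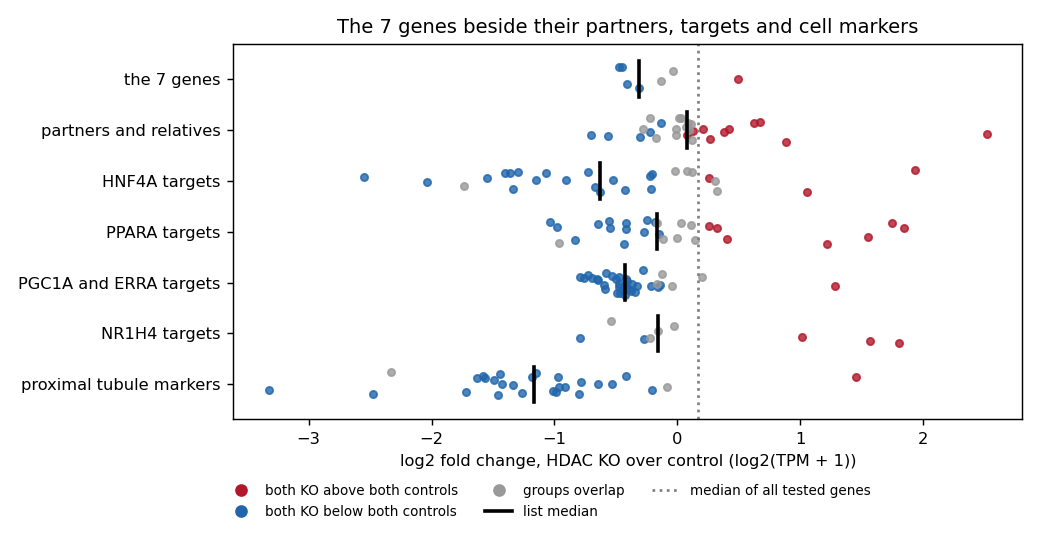
Log2 fold change (HDAC KO over control) of every tested gene of the 7 regulators, their partners and relatives, 4 target lists and the proximal tubule markers, coloured by whether both HDAC KO libraries lie above (red), below (blue) or among (grey) the controls. The bars mark list medians, from -1.16 for the markers to 0.08 for the partners, with the median of all tested genes dotted at 0.17.

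Partners and relatives of the 7 had a median log2 fold change of 0.08 over 27 tested, 10 of them higher and 5 lower in both KO-labelled libraries. These shares are near those of all tested genes, 36.7% higher and 14.3% lower. Ppard, Esrrb, Esrrg and Lpin1 were among the 5. By limma 0 passed the adjusted threshold, with 4 higher (13.4% of all tested genes) and 1 lower (4.46%) at an unadjusted p below 0.05. The median was -0.13 with median-ratio scaling, -0.08 with quantile normalization and -0.10 without KO-labelled replicate 2. The retinoid X receptor gene Rxra was at 41.2 and 53.8 TPM in the KO-labelled libraries against 48.8 and 39.9 TPM in the controls, and Esrrg, a relative of Esrra, at 43.2 and 41.4 TPM in the KO-labelled libraries against 44.5 and 48.4 TPM in the controls. Lpin1, a phosphatidate phosphatase that also acts as a coactivator with PPARGC1A, was at 12.0 and 14.2 TPM in the KO-labelled libraries against 22.4 and 21.5 TPM in the controls (log2 fold change by limma -0.70, SE 0.19, adjusted p = 0.159). The corepressor gene Ncor1 was at 74.8 and 82.9 TPM in the KO-labelled libraries against 74.4 and 74.6 TPM in the controls.
Within the Maf family, Maff and Mafk, which are small Maf proteins, were higher in both KO-labelled libraries, and Mafg overlapped. Maff was at 17.9 and 16.0 TPM in the KO-labelled libraries, against 0.922 and 4.11 TPM in the controls (log2 fold change by limma 2.52, SE 0.49, adjusted p = 0.110). Mafk was at 24.0 and 28.0 TPM in the KO-labelled libraries against 14.7 and 17.2 TPM in the controls. Mafg, the third small Maf gene, was at 43.6 and 55.3 TPM in the KO-labelled libraries against 46.0 and 53.2 TPM in the controls. Pprc1, a relative of Ppargc1a, was at 15.7 and 19.5 TPM in the KO-labelled libraries against 9.54 and 12.6 TPM in the controls, and Ppargc1b at 17.6 and 23.7 TPM in the KO-labelled libraries against 18.4 and 21.9 TPM in the controls.

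The genes whose pattern over the 4 libraries was most like that of each regulator were taken from 10327 genes with a mean of at least 5 TPM, by the root mean square difference of centred log2(TPM + 1). Hnf4a was followed most closely by Sfxn5 and Ecsit (0.02 each) and Mpc1 (0.03), a subunit of the mitochondrial pyruvate carrier. Esrra was followed by Phb, Etfb and Cyp2u1 (0.02 each), and Etfb passes electrons from fatty acid oxidation to the respiratory chain. The nearest to Nr1h4 were Casc4, Dpp7 and Fads3, to Ppargc1a Fra10ac1, Slc5a3 and Guf1, and to Ppara Rbm10, Atxn2 and Dennd5b. Maf was nearest to Unkl, Lzts3 and Dqx1, and Hnf4g to Plxnb2 (0.03), Scand1 (0.05) and Spsb2 (0.06). With 4 libraries this likeness is a description only.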

How the data were processed

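Values were taken from 1 table in which the authors deposited TPM for 22809 Ensembl genes in 4 libraries, each column summing to 1000000. The submitters' processing notes list, without roles or order, DESeq2 1.30.1, featureCounts 2.0.0, STAR 2.7.9 and fastp 0.20, and the build GRCm38.p6. Annotation, strand setting and gene filter: not given in the sources used here. Identifiers were matched without version to 22762 symbols.

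Multiplying TPM by the exon length in GENCODE M21 (GRCm38) gave whole multiples of 1 step per library for all 22176 genes whose version matched, within a relative tolerance of 1e-06. This recovered the reads, but not those of Esrra, whose version differed. Mitochondrial genes held 38.7% to 46.5% of a library's TPM.

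The fit was limma 3.58.1 in R 4.3.3 (with a variance trend) on log2(TPM + 1) without covariates, using all 4 libraries and the 18612 genes with a mean of at least 1 TPM. It left out 4197 genes and kept all 7 regulators. P values were adjusted by Benjamini-Hochberg over all tested genes. Fold changes on this scale understate those of low genes. Only 2 residual degrees of freedom remain, and an exact permutation test of 2 against 2 cannot reach the threshold. The test was checked on simulated reads, with known changes larger than those of the 7 genes and no differences in cell content. Python 3.11.15, numpy 2.4.6, pandas 2.3.3 and matplotlib 3.10.9 were used for the rest.

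The 7 genes, 12 further lists and the motifs were chosen with earlier results of these data known. Named are the 7 genes, in each other list up to 4 tested genes with the smallest p, partners with a mean of at least 10 TPM, and 3 genes like each regulator in pattern, leaving out predicted and mitochondrial genes. Others named are the genes of a family or exception, chosen after their values were seen. Some genes stand in 2 lists, and the list of HNF4A targets also holds targets of another factor. Some genes and motifs that the rules name are not reported here. Alternatives were voom on the recovered reads, a replicate block, leaving out each library, limma without trend, scaling by median ratios or quantiles, pseudocounts of 0.1 and 5, and the filter dropped or set at 5 TPM.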

Additional observations from a re-analysis of the deposited data

How the results depend on the processing

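Over 13 other settings, 6 of the 7 regulators were never called. Nr1h4 was called without control replicate 2 only (log2 fold change -0.76). That fit has control replicate 1 as its only control, and it also called the most genes of the whole table. The log2 fold change of Nr1h4 ranged from -0.76 to -0.061 with libraries left out. Signs turned for Maf without KO-labelled replicate 1 (0.16, range from -0.24) and for Ppara without control replicate 2 (0.00094, range from -0.27), and in no other of these settings for the 7. The cause was not tested. Hnf4a kept a log2 fold change between -0.67 and -0.30, with adjusted p between 0.101 and 0.936.

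Leaving out libraries moved the count of all genes called between 0 and 1558 higher and between 0 and 522 lower, with the highest counts without control replicate 2. No gene was called lower with quantile normalization, limma without trend or voom (0 each). In those 3 settings 0 were called higher. List medians with libraries left out ranged from -1.48 to -0.64 for proximal tubule markers, -0.65 to -0.31 for HNF4A targets, -0.22 to -0.09 for PPARA targets, -0.50 to -0.35 for PPARGC1A and ESRRA targets, -0.21 to 0.41 for NR1H4 targets and -0.10 to 0.17 for partners. Median-ratio scaling shifted the median of all genes by -0.18, and the medians of partners (-0.13) and of the targets of HNF4A (-0.85), PPARA (-0.38), and PPARGC1A and ESRRA (-0.64) moved with it. Quantile normalization gave -0.084 for partners.

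The replicate number as a block called 1 gene, as without it, and none of the 7, with adjusted p = 0.347 for Hnf4a. Same-numbered libraries deviated together with a correlation of 0.14 over genes, and the labels do not say that the number marks a shared experiment. Esrra has no voom value. Hnf4g rests on the fewest reads, 69 in control replicate 2.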
